A study of Mus musculus with 10 samples.

Results

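The genes described here are 9 inhibitors of epidermal proteases: Spink5 and Spink12 of the Kazal family, Slpi, Wfdc5, Wfdc12 and Wfdc21 of the whey acidic protein (WAP) family, and Cst6, Csta1 and Cstb of the cystatin family. They were chosen by name, as Spink5 with other small inhibitors known from skin, and all 9 stand among the 23282 entries of each table. The samples are whole skin of C57BL/6 mice, 5 months old: 5 libraries carry a keratinocyte-specific STAT3 ablation (STAT3cKO) and 5 are wild type (WT). Neither the promoter behind the ablation nor the exons removed are named in the sources used here. The labels also do not tie each library to its own animal, and the p-values then describe only library-to-library spread, which may be technical. The study's title names Spink5 and the protease Klk5, and the comparison asks how their transcripts and those of related inhibitors differ between the genotypes.

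Desquamation depends on a balance of proteases and inhibitors. Kallikreins are secreted by granular keratinocytes and cut the desmosomal proteins that hold cornified cells together. LEKTI, the protein of SPINK5, blocks kallikreins between the cells, and its loss causes Netherton syndrome. WAP proteins such as SLPI inhibit serine proteases of neutrophils, including elastase and cathepsin G. Cystatins inhibit cysteine proteases: CST6 (cystatin M/E) acts on legumain and cathepsin L and thereby restrains transglutaminase 3, while stefins A and B lack a signal peptide and act mainly inside cells, so that the word "secreted" holds for the family as a whole and not for Csta1 and Cstb.

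Libraries were made from the 3′ ends of transcripts, so a value does not scale with transcript length. Levels of different genes can be set side by side only roughly, since the annotation and the use of strand in counting are not given. Values are log2 of scaled reads plus 1, and a step of 1 is a doubling. Estimated depth was 7520000 to 18300000 reads in STAT3cKO and 7190000 to 16600000 reads in WT. STAT3cKO 2 stood apart, with 2617 of the 11536 tested genes without a read, against 83 to 1273 in the other 9 libraries. It also carried the Y-linked Ddx3y at 10.62 and Xist at 0.06, whereas Xist was 8.65 to 11.01 in the other 9 libraries. The markers of the labelled tissue were present: all 7 basal, 6 suprabasal and 7 granular keratinocyte genes listed had reads in both groups. Stat3 itself was 9.49 to 10.81 in STAT3cKO and 9.08 to 10.29 in WT (change 0.41, limma adjusted p = 0.7). A 3′ read from whole skin can come from a transcript that lacks the deleted exons or from another cell type, so this value does not check the ablation. In bulk skin, fewer cells of a type and less RNA per cell cannot be told apart.

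On mm10, in the GENCODE M21 annotation, Spink5 lies on the plus strand of chromosome 18 from 43963235 to 44022501 and Spink12 on the same strand from 44104407 to 44108543. The WAP genes Slpi (164354070 to 164389095), Wfdc5 (164176327 to 164182742) and Wfdc12 (164189231 to 164190608) share the minus strand of chromosome 2, while Wfdc21 is on chromosome 11 (83746940 to 83752642, plus strand). Cst6 lies on chromosome 19 (5344705 to 5349574, minus strand), Csta1 on chromosome 16 (36119946 to 36131241, minus strand) and Cstb on chromosome 10 (78425669 to 78427622, plus strand).

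Spink5 was among the most abundant of the inhibitors in both genotypes and its level did not pass the test. Its values were 13.44, 13.24, 12.84, 13.23 and 13.65 in STAT3cKO 1 to 5. In WT 1 to 5 they were 12.46, 12.61, 13.41, 12.23 and 13.61. WT libraries fell into 3 lower and 2 higher values, and the higher ones lay within the STAT3cKO range. The mean was 13.28 ± 0.30 in STAT3cKO and 12.86 ± 0.61 in WT (SD, n = 5 each). Spink5 thus changed by 0.42, with an SE of 0.29 (95% interval −0.19 to 1.02, exact 2-sided permutation p = 0.183, limma adjusted p = 0.607). Without WT 4, the lowest library, it was 0.26 (SE 0.28).

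Of the 9 inhibitors, 6 reached a value of at least 5 in at least 5 libraries and were tested: Spink5, Wfdc5, Wfdc21, Cst6, Csta1 and Cstb. At a Benjamini-Hochberg adjusted p under 0.05, 0 of these 6 were called in either direction, where 0.988% of all tested genes were called. At an unadjusted limma p under 0.05 there were 2 of 6, Wfdc5 and Csta1, against 10.9% of all genes. The median change of the 6 was 0.60, and that of all tested genes was −0.16. The plot of the 9 genes by library shows that spread within a genotype was often as wide as the distance between genotypes.

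**Figure D1:**
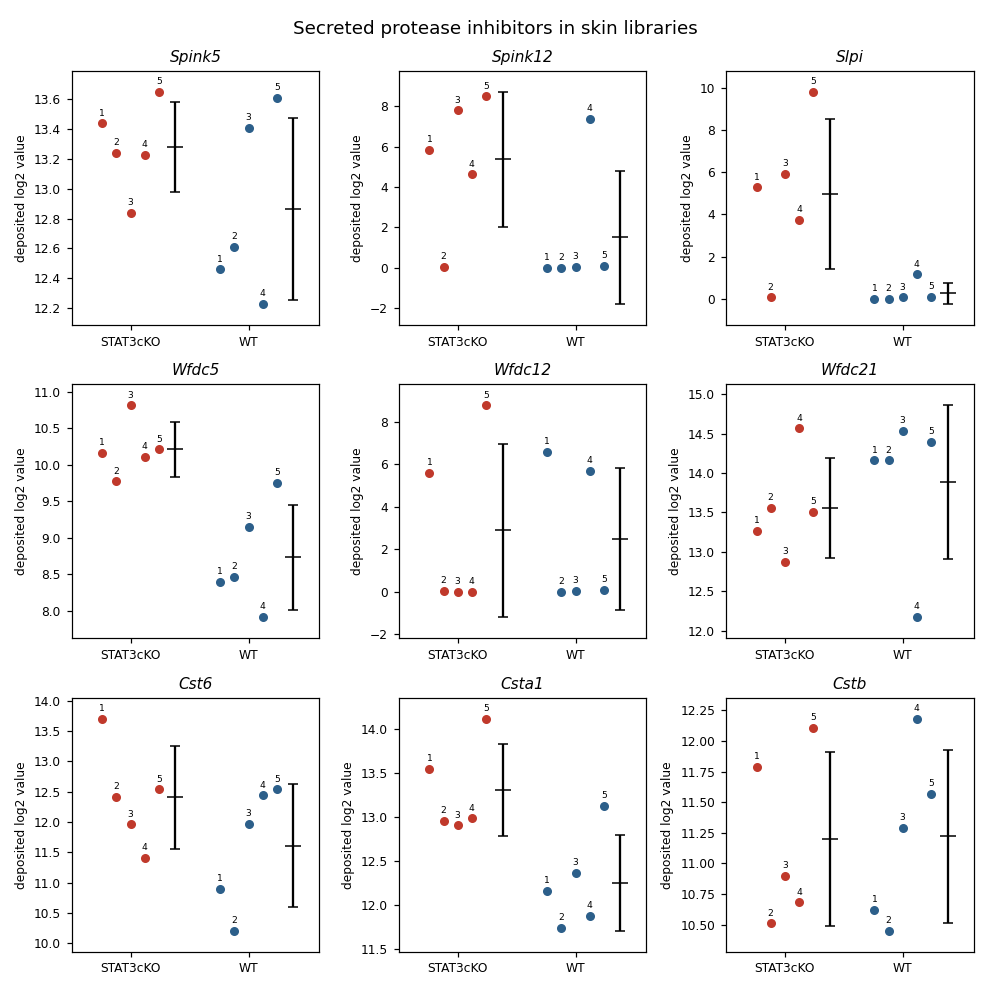
Deposited log2 values (vertical axes, each with its own range) of the 9 inhibitors in the 5 STAT3cKO and 5 WT libraries (horizontal axis). Points are libraries with their replicate number, and the horizontal tick with its bar is the mean ± SD. Wfdc5 is the only tested gene of the 9 whose groups do not overlap, and Spink12, Slpi and Wfdc12 are near 0 in many libraries.

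Among the WAP genes, Wfdc5 had the largest change of the tested inhibitors. Wfdc5 values were 10.16, 9.77, 10.81, 10.11 and 10.21 in STAT3cKO 1 to 5, against 8.39, 8.46, 9.15, 7.91 and 9.75 in WT 1 to 5. The lowest STAT3cKO library lay just above the highest WT library, and 1.71% of all tested genes were likewise higher without overlap. The change of Wfdc5 was 1.48 (SE 0.40, 95% interval 0.64 to 2.32, exact permutation p = 0.00794, the smallest that 5 against 5 libraries can give). After adjustment over all genes limma's p was 0.091. Without WT 5, the WT library closest to the STAT3cKO ones, it was 0.0468 at a change of 1.74. Exons of the antisense gene A730032A03Rik overlap those of Wfdc5 and Wfdc12 on the opposite strand, and since the use of strand in counting is not given, reads of the partners cannot be told apart.

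Wfdc21 was the most abundant of the 9 by its mean over all libraries. Its values were 13.27, 13.56, 12.87, 14.57 and 13.51 in STAT3cKO 1 to 5 and 14.16, 14.16, 14.54, 12.17 and 14.40 in WT 1 to 5. All but 1 WT library lay above all but 1 STAT3cKO library, and WT 4 was the lowest of the 10. Wfdc21 changed by −0.33, with an SE of 0.43 (95% interval −1.26 to 0.60), at a limma adjusted p of 0.803. Leaving out WT 4 moved it to −0.76 (SE 0.29, with 0.258 as its limma adjusted p), and leaving out STAT3cKO 3 to −0.16.

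Among the cystatins, Csta1, the mouse counterpart of stefin A and a component of the cornified envelope, was higher in STAT3cKO on average. Its values were 13.55, 12.96, 12.91, 12.99 and 14.12 in STAT3cKO 1 to 5, against 12.16, 11.74, 12.37, 11.88 and 13.13 in WT 1 to 5. Only WT 5 reached into the STAT3cKO range. The change was 1.05 (SE 0.31, 95% interval 0.40 to 1.70, exact permutation p = 0.0317, limma adjusted p = 0.125). The last 250 bases of the Csta1 transcript align over at least 120 bases with transcripts of 9 stefin A-like genes in the tables, at 79.7 to 88.3% identity. Gm5689, which is not in the tables, aligns at 97.6% identity over 125 bases. Reads of Csta1 may be shared with these genes, which was not checked.

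Cst6 (cystatin M/E) spread widely in both genotypes. Its values were 13.70, 12.42, 11.96, 11.41 and 12.54 in STAT3cKO 1 to 5 and 10.90, 10.21, 11.97, 12.44 and 12.54 in WT 1 to 5. Cst6 changed by 0.79, with an SE of 0.49 (95% interval −0.27 to 1.85), at a limma adjusted p of 0.581. Without WT 2 its change was 0.44 and without STAT3cKO 1 it was 0.47. The last 250 bases of the Cst6 transcript align over at least 120 bases with transcripts of other genes, at 76.6 to 85.5% identity. Some reads of Cst6 may be shared as well, which was also not checked. Cstb (stefin B) was 11.79, 10.51, 10.90, 10.68 and 12.11 in STAT3cKO 1 to 5 and 10.62, 10.45, 11.29, 12.18 and 11.57 in WT 1 to 5. Its groups covered nearly the same range, and it changed by −0.03, with an SE of 0.38 (95% interval −0.84 to 0.78), at a limma adjusted p of 0.987, and the sign of this change turned under several alternatives.

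**Figure D2:**
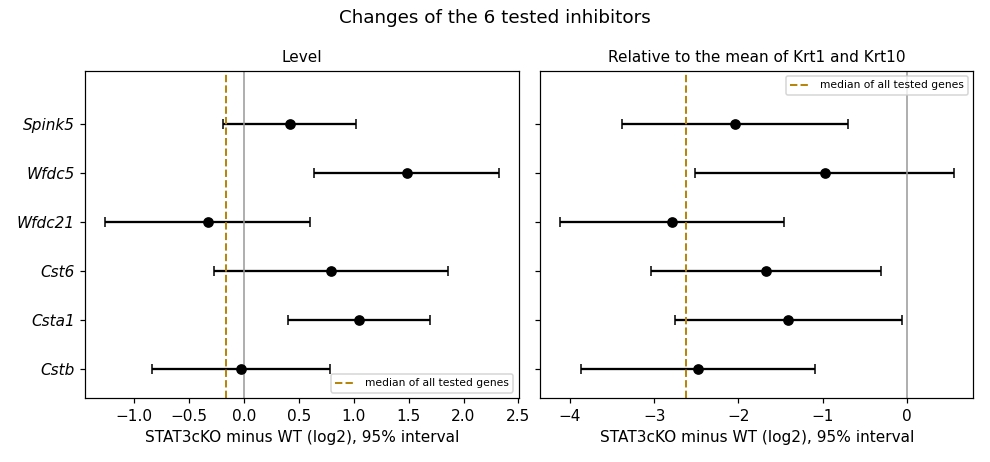
Change of the 6 tested inhibitors, STAT3cKO minus WT in log2 units (horizontal axes), as levels (left) and relative to the mean of Krt1 and Krt10 of the same library (right). Points are limma estimates with 95% intervals, the grey line marks 0 and the dashed line the median of all 11536 tested genes, −0.16 on the left and −2.62 on the right.

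The other 3 inhibitors were sparse, and a gene without a read can still have been present below the depth. In any library, no read allows up to 3 reads, or a value of up to 2.46. Slpi had 31.2, 0, 56.4, 16.9 and 1600 estimated reads in STAT3cKO 1 to 5, and 0, 0, 0, 1.03 and 0 in WT 1 to 5. Reads of Slpi thus stood in 4 of 5 STAT3cKO libraries and 1 of 5 WT libraries, most of them in STAT3cKO 5. On the log2 scale the exact permutation p for Slpi was 0.0238, and in a fit of all entries without the filter its limma adjusted p was 0.336. With 1 read in all of WT, no fold change is given. Spink12 had 46.3, 0, 206, 31.8 and 631 estimated reads in STAT3cKO 1 to 5, and 0, 0, 0, 139 and 0 in WT 1 to 5 (exact permutation p = 0.103, limma adjusted p without the filter = 0.593). Its reads again lay in 4 of 5 STAT3cKO libraries and 1 of 5 WT libraries. Wfdc12 had 39.2, 0, 0, 0 and 768 estimated reads in STAT3cKO 1 to 5, and 142, 0, 0, 43.3 and 0 in WT 1 to 5, with reads in 2 libraries of each genotype (exact permutation p = 0.96).

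Markers of other keratinocyte states differed between these same libraries. The mean of 8 activated keratinocyte genes, among them Krt6a, Krt16, S100a8 and S100a9, was 8.72, 5.28, 4.33, 6.93 and 11.86 in STAT3cKO 1 to 5 and 3.37, 4.78, 4.15, 6.03 and 2.67 in WT 1 to 5. It was highest in STAT3cKO 5, which also held the most Slpi, Spink12 and Wfdc12. All 8 had a read in some STAT3cKO library and 7 in some WT library (not Sprr2d), limma called 0 of the 5 tested, 0 also at an unadjusted p under 0.05, and their summed level was 11.35 to 16.3 in STAT3cKO against 9.41 to 13.26 in WT. The mean of 14 anagen hair follicle genes was 8.94, 0.06, 12.02, 0.35 and 8.94 in STAT3cKO 1 to 5 and 0.15, 0.45, 2.9, 13.15 and 2.22 in WT 1 to 5. The 4 libraries with the highest follicle means were also the 4 with the most Spink12 reads, while STAT3cKO 4 had 31.8 Spink12 reads at a follicle mean near 0. All 14 follicle genes had a read in both genotypes, limma called 0 of the 6 tested, 0 also at an unadjusted p under 0.05, and their summed level was 0.71 to 17.6 in STAT3cKO and 2.1 to 18 in WT. Of 9 neutrophil genes, 5 had a read in STAT3cKO, where Camp, Ltf, Elane and Mpo had none, and 9 in WT, with summed levels of 2.7 to 10.06 in STAT3cKO and 7.41 to 8.62 in WT. Camp had reads only in WT 4. Cxcr2 had a higher mean in STAT3cKO (4.98 against 2.05 in WT), as had Mmp8 (2.67 against 0.91), while the means of the other neutrophil genes were lower. Limma called 0 of the 1 tested, Mmp9, with 1 at an unadjusted p under 0.05. The part of these cell states in the values of Slpi, Spink12 and Wfdc12 was not tested.

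**Figure D3:**
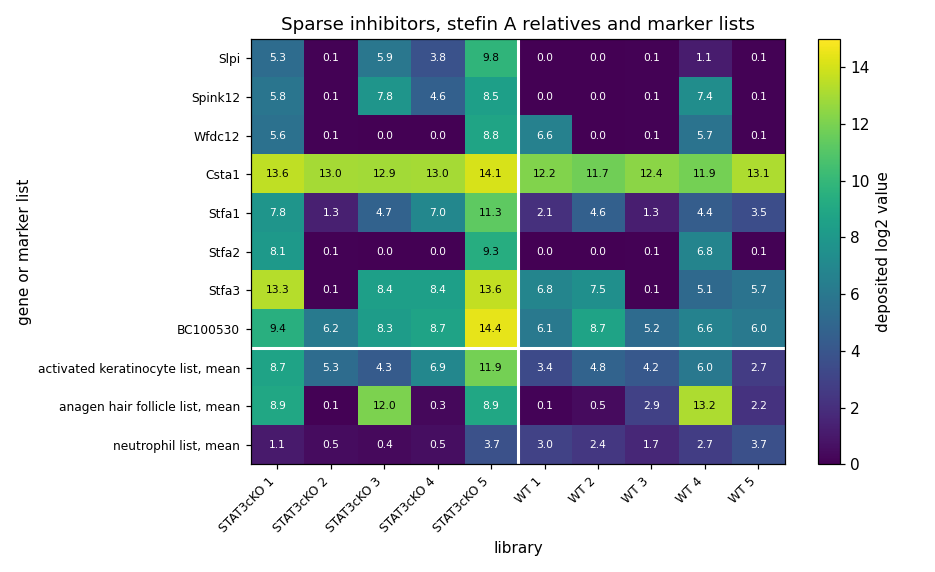
Deposited log2 values of the 3 sparse inhibitors, Csta1 and 4 stefin A relatives (upper rows) and mean values of 3 marker lists (lower rows) in each library (columns, STAT3cKO left of the white line and WT right of it). Colour and printed number give the value. STAT3cKO 5 and STAT3cKO 1 hold the 2 highest values of Stfa1, Stfa2, Stfa3 and BC100530.

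The stefin A relatives of Csta1, picked out after their values were seen, were uneven between libraries. BC100530 had 9.45, 6.15, 8.28, 8.71 and 14.45 in STAT3cKO 1 to 5, against 6.08, 8.71, 5.24, 6.64 and 6.04 in WT 1 to 5. Stfa3 had 13.33, 0.06, 8.44, 8.45 and 13.61 in STAT3cKO 1 to 5, against 6.81, 7.47, 0.06, 5.11 and 5.71 in WT 1 to 5. STAT3cKO 1 and 5, high for both, also held the highest Csta1 values. The changes of BC100530 (2.87, SE 1.24, limma adjusted p = 0.42) and Stfa3 (3.75, SE 2.34, limma adjusted p = 0.582) did not pass the test.

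RefSeq promoter windows on GRCm38.p6 were at hand for 3 of the 9 inhibitors. They are shown because the factor ablated here, STAT3, is known to bind the palindrome TTCNNNGAA. Bases upstream of the RefSeq transcript start are printed 5′ to 3′ on the gene's own strand, cut where an annotated exon begins. Capitals would mark a match to TTCNNNGAA or to the AP-1 motif TGANTCA. The Slpi window is upstream of a RefSeq start but lies within the longer GENCODE M21 span of Slpi given above.
Csta1, chr16:36131242-36131439, minus strand: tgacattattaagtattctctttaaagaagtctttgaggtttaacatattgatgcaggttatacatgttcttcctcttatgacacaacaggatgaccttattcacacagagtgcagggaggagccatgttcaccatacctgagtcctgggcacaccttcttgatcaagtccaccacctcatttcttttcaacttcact
Slpi, chr2:164356508-164356757, minus strand: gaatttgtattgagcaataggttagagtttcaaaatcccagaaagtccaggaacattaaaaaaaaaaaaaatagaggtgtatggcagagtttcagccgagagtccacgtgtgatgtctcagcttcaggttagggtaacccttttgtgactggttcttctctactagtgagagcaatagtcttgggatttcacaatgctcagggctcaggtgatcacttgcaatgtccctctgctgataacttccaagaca
Wfdc12, chr2:164190609-164190808, minus strand: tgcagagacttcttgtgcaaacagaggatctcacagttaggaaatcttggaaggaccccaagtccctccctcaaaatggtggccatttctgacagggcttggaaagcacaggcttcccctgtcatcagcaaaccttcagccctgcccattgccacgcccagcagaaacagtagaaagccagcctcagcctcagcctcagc
Both strands were searched, each motif being its own reverse complement, and 0 matches stand in these 3 windows. Over 250 upstream bases, TTCNNNGAA occurred in 7.02% and TGANTCA in 6.75% of 32851 RefSeq starts. The letters are a description of these windows and say nothing of binding elsewhere.

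By level, the order over all 10 libraries was Wfdc21, Spink5, Csta1, Cst6, Cstb and Wfdc5. Differences between neighbours were about the size of their spread over libraries, or smaller, down to Cstb. Wfdc21 exceeded Spink5 by 0.65 ± 0.74 (SD of the paired difference, n = 10) and in 7 of 10 libraries. Spink5 exceeded Csta1 by 0.29 ± 0.45 and in 7 of 10 libraries, 2 of 5 STAT3cKO and 5 of 5 WT. Csta1 exceeded Cst6 by 0.77 ± 0.75 in 8 of 10 libraries, Cst6 exceeded Cstb by 0.80 ± 0.70 in 9, and Cstb exceeded Wfdc5 by 1.74 ± 1.16 in all 10. All 9 inhibitors together took 0.284 to 0.531% of the summed scaled values in STAT3cKO and 0.21 to 0.49% in WT, ranges that overlap over most of their width.

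Some libraries were among the highest or the lowest for most of the tested inhibitors. STAT3cKO 1 and STAT3cKO 5 were each among the 3 highest libraries for 5 of the 6 tested inhibitors. WT 1 and WT 2 were each among the 3 lowest for 5 of 6, and WT 5 was among the 3 highest for 4. WT 4 was among the 3 lowest for 4 of 6. Such counts were not made over all tested genes, so nothing particular to the inhibitors can be read from them. Markers of fat differed between the libraries too. The mean of 8 adipocyte genes was 9.61, 12.49, 8.77, 10.93 and 10.02 in STAT3cKO 1 to 5 and 14.07, 14.12, 13.75, 11.64 and 12.72 in WT 1 to 5. It was highest in WT 1 and WT 2. WT 4 had the lowest adipocyte mean of the WT libraries, and WT 5 had a higher one than every STAT3cKO library. All 8 had reads in both genotypes, limma called 0 of 8, 8 at an unadjusted p under 0.05, and their summed level was 15.33 to 17.88 in STAT3cKO and 16.72 to 19.27 in WT. The part of fat content in the level of the inhibitors was not tested. Likeness to Spink5 was measured as the SD of a gene's log2 difference from Spink5 over the 10 libraries, among 1591 genes with a value of at least 9 in every library. The smallest SDs were those of Prpf8 (0.272), a core splicing factor, Vimp (0.330), Rnh1 (0.335), the ribonuclease inhibitor, Msl1 (0.338) and Nt5c3 (0.340), against a median of 0.721. A gene of constant value would give 0.503, the SD of Spink5 itself, so steady genes also score low on this measure. The nearest inhibitor was Csta1 at 0.448, in place 48, while Wfdc21, Cstb and Cst6 lay at 0.742, 0.734 and 0.828. Wfdc5 had an SD of 0.697 but no place, since its value was under 9 in some libraries.

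Krt1 and Krt10, the keratin pair of the suprabasal epidermis, differed between the genotypes by more than Spink5 did. Their mean in each library was 14.57, 12.93, 13.48, 14.42 and 15.11 in STAT3cKO 1 to 5 and 11.67, 11.57, 11.58, 10.26 and 13.15 in WT 1 to 5. The change of this mean was 2.46 (exact permutation p = 0.0159). Neither keratin passed the test over all genes alone: the change was 3.44 for Krt1 (SE 0.72, limma adjusted p = 0.054) and 1.48 for Krt10 (SE 0.39, limma adjusted p = 0.1), and an antisense gene, Gm11940, overlaps exons of Krt10.

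Relative to Krt1 and Krt10, 4 of the 6 tested inhibitors were called lower in STAT3cKO, where 55.5% of all tested genes were called lower in the same fit and 0.0607% higher. The inhibitors' share is near that background, and nothing particular to them can be read from it. The median relative change was −1.86 for the 6 inhibitors and −2.62 for all genes. Since the same reference is subtracted from every gene, its spread is shared by all of them, and exact permutation p-values over libraries are given beside limma's.

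Spink5 minus the keratin mean was −1.12, 0.32, −0.64, −1.20 and −1.46 in STAT3cKO 1 to 5, against 0.79, 1.04, 1.83, 1.98 and 0.46 in WT 1 to 5. All STAT3cKO values lay below all WT values, the closest being STAT3cKO 2 and WT 5. The relative change of Spink5 was −2.04 (SE 0.68, 95% interval −3.38 to −0.70, limma adjusted p = 0.00889, exact permutation p = 0.00794). Relative changes were −2.79 for Wfdc21 (limma adjusted p = 0.000518) and −2.48 for Cstb (limma adjusted p = 0.00247), both without overlap of the groups. The share of all tested genes that separated in this way was not computed. The separation of Spink5, Wfdc21 and Cstb is therefore not read as a trait of the inhibitors. Cst6 was called at −1.67 (limma adjusted p = 0.0333, exact permutation p = 0.0714) with overlapping groups, and its call was lost without STAT3cKO 4 (limma adjusted p = 0.136), STAT3cKO 5 (0.0885), WT 3 (0.076) or WT 4 (0.159). Csta1 at −1.41 (limma adjusted p = 0.0672) and Wfdc5 at −0.98 (limma adjusted p = 0.263) did not pass, and Csta1 passed without STAT3cKO 2 (0.0326) or WT 5 (0.019). The choice of reference decided the result for Spink5. Relative to Krt1 alone its change was −3.02 (limma adjusted p = 0.00225), to Krt10 alone −1.06 (0.131), to 6 early suprabasal genes −1.003 (0.0851) and to the basal keratins Krt5 and Krt14 −0.54 (0.587).

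Set against its protease, Spink5 had a lower mean difference from Klk5 in STAT3cKO. By exact permutation this did not pass once adjusted over the 6 differences computed. In a limma fit it was called, as were many other genes. Klk5 had 11.84, 10.87, 10.46, 10.42 and 10.41 in STAT3cKO 1 to 5, against 7.97, 8.53, 9.32, 9.02 and 9.56 in WT 1 to 5. Spink5 minus Klk5 was 1.61, 2.37, 2.38, 2.81 and 3.24 in STAT3cKO 1 to 5, against 4.49, 4.08, 4.09, 3.22 and 4.04 in WT 1 to 5. The highest STAT3cKO library just overlapped the lowest WT library. The difference averaged 2.48 ± 0.61 in STAT3cKO and 3.98 ± 0.47 in WT (SD, n = 5 each). As a ratio of scaled reads, Spink5 to Klk5, this is 5.58 in STAT3cKO against 15.8 in WT, which is not a count of transcripts. The change was −1.50 (exact 2-sided permutation p = 0.0159, adjusted over the 6 differences 0.0951). In the limma fit of all genes relative to Klk5, Spink5 was called lower (change −1.50, SE 0.47, limma adjusted p = 0.0137). In the same fit 40.8% of all tested genes were called lower, so a shift of this kind was common to many transcripts.

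**Figure D4:**
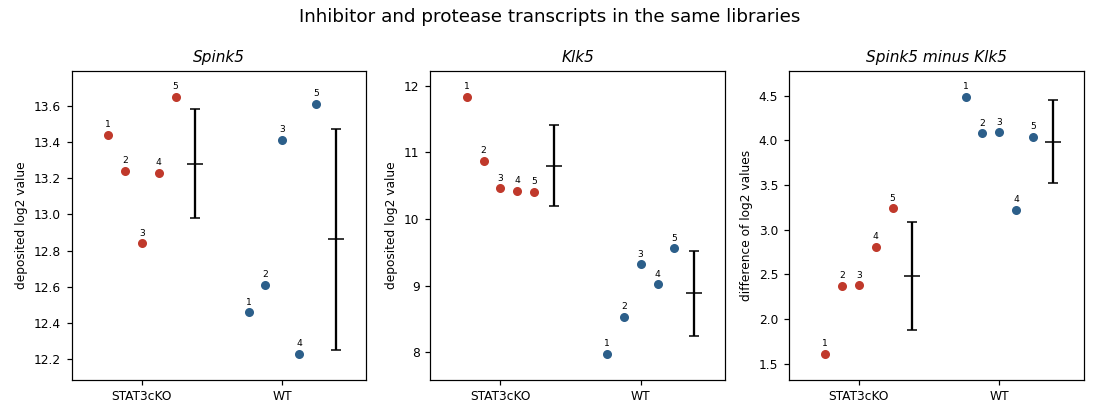
Deposited log2 values of Spink5 (left) and Klk5 (middle) and their difference in the same library (right), in the 5 STAT3cKO and 5 WT libraries. Points are libraries with their replicate number and bars the mean ± SD. Klk5 separates the groups, and the difference is lower in STAT3cKO with a small overlap between STAT3cKO 5 and WT 4.

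Among the other differences, against Klk7, the chymotrypsin-like kallikrein, Spink5 shifted by −0.64 (exact permutation p = 0.183). Klk14 had reads in 2 STAT3cKO libraries and 1 WT library, too few for a ratio. Against the desmosomal cadherin Dsg1a, a protein that kallikreins cut, Spink5 shifted by −0.65 (exact permutation p = 0.0317, adjusted 0.0951), and against the suprabasal Krtdap by 0.09 (exact permutation p = 0.714). Cst6 minus its target Ctsl, which encodes cathepsin L, shifted by 1.27 (exact permutation p = 0.111), and Cst6 minus Lgmn, which encodes legumain, by 0.49 (exact permutation p = 0.77).

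Lists of proteases and of wider inhibitor families were looked at next. Over all tested genes, limma called 0.988%, and 10.9% had an unadjusted p under 0.05. The lists were chosen with earlier results known, so their shares are no test of a list. Among 10 tested kallikreins and other serine proteases there were 2 that rose and 0 that fell, with 5 at an unadjusted p under 0.05. Klk10 rose by 1.97 (SE 0.34, limma adjusted p = 0.00622) and Klk5 by 1.92 (SE 0.39, limma adjusted p = 0.0223), and the median of the 10 was 1.14. Klk7 changed by 1.05 (limma adjusted p = 0.184). Of 11 cysteine proteases and transglutaminases, limma called 0, with 0 at an unadjusted p under 0.05 and a median of 0.14, and the lowest p-values were those of Ctsb (cathepsin B, change −0.41, limma adjusted p = 0.631) and Ctsk (cathepsin K, change −1.21, limma adjusted p = 0.65). Of 10 tested serpins and other inhibitors, limma called 0, with 3 at an unadjusted p under 0.05 and a median of 1.23. The lowest p-values there were those of Serpinb8 (1.07, limma adjusted p = 0.192) and Serpina12 (vaspin, an inhibitor of Klk7; 1.23, limma adjusted p = 0.252). Of 6 early suprabasal genes limma called 0, with 4 at an unadjusted p under 0.05 and a median of 1.27, Krt1 and Dsg1a (1.07, limma adjusted p = 0.0746) having the lowest p-values.

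Of the 43 other Kazal, WAP and cystatin genes listed, 16 had no read in any library and 7 were tested, of which 0 rose, 1 fell and 6 did not pass. Over all tested genes 0.988% were called in either direction. Wfdc17, a WAP gene known from activated macrophages, fell by 2.16 (SE 0.47, 95% interval −3.15 to −1.17, limma adjusted p = 0.0317). Its range was 6.86 to 8.43 in STAT3cKO and 9.11 to 10.70 in WT, without overlap. The share of all tested genes that were lower without overlap is not given here. Nothing particular to Wfdc17 is therefore read from this separation. The mean of 9 macrophage genes was 8.2 to 10.69 in STAT3cKO and 9.69 to 11.1 in WT; all 9 had reads in both genotypes, limma called 0 of 9, 2 at an unadjusted p under 0.05, and their summed level was 11.97 to 14.2 in STAT3cKO and 13.24 to 14.55 in WT. The part of macrophage content in the level of Wfdc17 was not tested.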

How the data were processed

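The authors deposited 1 table per library, whose values behave as log2 of scaled reads plus a pseudocount of 1; the unit was read from the values, since the file headers name none. Per the submitters' processing notes, Bowtie2, bedtools and mm10 were used. The kit, Lexogen QuantSeq, is named per the labels' protocols; the sources used here do not give the annotation, strand use or scaling. Low values lie near multiples of a step taken as 1 read, which gave the estimated depths; these cover counting error only. Genes with a value of at least 5 in at least 5 libraries were fitted with limma 3.58.1 in R 4.3.3 (group only, mean trend, robust) on all 11536 such genes with Benjamini-Hochberg adjustment, as deposited, relative to the Krt1 and Krt10 mean, and relative to Klk5. Single values were tested by exact 2-sided permutation over 252 assignments. Changes are STAT3cKO minus WT, and the pseudocount understates those of low genes. All 9 inhibitors, Krt1, Krt10, Stat3, Klk5, Klk7 and Klk14 were named, with up to 4 called genes per list or else the 2 with the lowest p. Members and lists were chosen with earlier results of these data known. Exons are from GENCODE M21. The limma fit, the shift of a relative fit and the exact permutation were tested on simulated or constructed values. The other steps were not tested in this way.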

Additional observations from a re-analysis of the deposited data

Results flagged for a closer look

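In 3 of the 32 groups of 5 libraries looked at, 1 library lay far from the others, and chance gives about 1 in 20. All 3 were WT 4: Spink12 at 7.37, with the next WT library at 0.08, Slpi at 1.15, the level of about 1 read, with the next at 0.08, and Wfdc21 at 12.17, below the next at 14.16. The rate of 1 in 20 does not hold for Spink12 and Slpi. They had 0 reads in the other WT libraries, and in such a group even 1 read is flagged. WT 4 also had the highest anagen hair follicle mean, 13.15; the part of hair growth in these values was not tested.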

How the results depend on the processing

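The change of Spink5 stayed short of the threshold under all 21 alternatives, between 0.17 and 0.67. The number of inhibitors called higher was 0 to 1 when 1 library was left out and 2 with library weights (Wfdc5 and Csta1, each at a limma adjusted p of 0.0107); none was called lower. Over all genes the calls ranged from 13 to 202 higher and 24 to 173 lower, where the fit as reported gave 61 and 53. The change of Cstb turned to 0.086 with an equal sum per library, 0.46 with library weights, 0.16 without STAT3cKO 2 and WT 3, and lay between −0.25 and 0.21 without 1 library. Relative to other references the change of Spink5 was −1.06 (Krt10), −1.003 (6 suprabasal genes) and −0.54 (Krt5 and Krt14), no longer called, with 1, 2 and 0 of 6 inhibitors called lower, where 20.2%, 22.4% and 0.971% of all genes were; Wfdc5 turned to 0.006, 0.06 and 0.52, and Csta1 to 0.091 with Krt5 and Krt14. Relative to Krt1 and Krt10, Csta1 passed with the replicate block (limma adjusted p = 0.0416) and with library weights (0.00112), Wfdc5 passed with library weights (0.0152), and Cst6 was lost with library weights (0.0532) and plain empirical Bayes (0.124). Spink5 minus Klk5 was −1.45 without STAT3cKO 2 and WT 3 (exact permutation p = 0.0571) and −0.64 with Klk7 in its place; with Klk14 the value was 0.26, which is no ratio since Klk14 had no read in 7 libraries, and it is not among the 6 differences. With the replicate number as a block, Spink5 minus Klk5 was −1.50 at an exact p of 0.0625, the smallest that 5 pairs can give. Same-numbered libraries had correlations of −0.155 to 0.016 in their deviations from the group means, and 0 of 5 matched their own number best. The values thus show no sign that the numbers pair the libraries, but low correlations cannot exclude a pairing. The block moved the calls over all genes to 34 higher and 32 lower. Leaving out STAT3cKO 5 and WT 4 together, chosen after seeing the data, gave 0.17 for Spink5, −1.69 relative to the keratins and −1.88 against Klk5. The cause of these shifts was not tested.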
